A study of Mus musculus with 12 samples.

Results

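The 8 genes described here serve antibody-secreting plasma cells: Ighm, Ighg3 and Jchain encode parts of the antibody itself, Mzb1 helps to assemble it, Irf4, Prdm1 and Xbp1 are transcription factors of the plasma cell, and Ell2 acts on the processing of antibody mRNA. They were followed on 12 Affymetrix arrays of mouse lung, among 11602 genes tested. Each gene was read through the probe set that carried its symbol alone in the platform annotation and had the highest mean over the 12 arrays, and all 8 passed the filter on low values. The 8 genes were selected on measured values, with results of these arrays known and the log2 difference between combined and radiation lungs among them, so their values in that comparison are a description.

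The mice were wild type, and each group held 3 arrays. Combined lungs received a single dose of 25 Gy together with simvastatin, an inhibitor of HMG-CoA reductase, at 10 mg/kg by repeated intraperitoneal injection before and after irradiation, and were taken at 6 weeks. Radiation lungs received the 25 Gy and were taken at 6 weeks, simvastatin lungs received the same injections for up to 6 weeks without a dose of radiation, and control lungs received vehicle. Whether the radiation group also received vehicle, and the strain, recorded sex and part of the body irradiated, stand in no source used here. No time of collection was recorded for the control lungs, so a match in time cannot be assumed in comparisons with control. Animals were 8 to 12 weeks old in the 3 treated groups and 8 to 10 weeks old in the control group, so that age and treatment cannot be told apart in comparisons with control. The labels do not say that the arrays of a group came from separate animals, and p-values then measure only the spread between these samples.

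A B cell that becomes a plasma cell shuts down much of the B cell programme and turns its endoplasmic reticulum over to antibody. Irf4 and Prdm1 (Blimp-1) drive that switch, Xbp1 enlarges the secretory apparatus, and Ell2 favours the secreted over the membrane form of the heavy chain. IgM and IgA leave the cell as polymers held by the J chain, and in the airways such polymers are carried across the epithelium. Xbp1, Ell2 and Prdm1 are also expressed in cells that make no antibody, among them secretory epithelia.

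RefSeq (GRCm38.p6) listed a promoter window, from 250 bases before to 50 bases after the start of the gene, for 5 of the 8 genes: Jchain, Prdm1, Xbp1, Irf4 and Ell2. The 3 windows below are shown because Jchain, Ell2 and Prdm1 followed 3 different patterns across the arrays, described further on. The Jchain window is chr5:88527848-88528147 on the minus strand, that of Ell2 is chr13:75707234-75707533 on the plus strand and that of Prdm1 is chr10:44458699-44458998 on the minus strand. Capitals mark motif matches.
Jchain: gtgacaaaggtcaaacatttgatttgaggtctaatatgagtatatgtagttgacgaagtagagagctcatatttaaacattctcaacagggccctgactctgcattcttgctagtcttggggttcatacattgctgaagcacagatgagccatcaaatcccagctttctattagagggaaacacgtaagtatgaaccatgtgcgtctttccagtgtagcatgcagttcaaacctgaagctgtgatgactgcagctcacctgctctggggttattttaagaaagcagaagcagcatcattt
Ell2: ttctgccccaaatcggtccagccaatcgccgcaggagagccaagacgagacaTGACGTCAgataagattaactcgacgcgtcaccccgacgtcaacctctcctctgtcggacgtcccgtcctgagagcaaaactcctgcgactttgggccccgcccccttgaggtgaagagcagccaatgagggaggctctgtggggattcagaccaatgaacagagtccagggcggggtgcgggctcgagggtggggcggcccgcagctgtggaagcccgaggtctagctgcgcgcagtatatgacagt
Prdm1: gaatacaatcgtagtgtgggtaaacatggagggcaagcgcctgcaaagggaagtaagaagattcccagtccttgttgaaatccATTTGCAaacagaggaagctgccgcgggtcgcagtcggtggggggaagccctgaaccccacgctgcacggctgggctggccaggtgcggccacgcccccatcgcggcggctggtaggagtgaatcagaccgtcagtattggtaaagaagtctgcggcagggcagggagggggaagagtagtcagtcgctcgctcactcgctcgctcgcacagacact
The motif set was completed after these windows had been read, so the matches and the shares beside them are a description. On both strands the windows were searched for the octamer ATGCAAAT, its core TGCAAAT (which lies within the octamer), an interferon response element of a pair of GAAA sites with 2 bases between them, the cAMP response element TGACGTCA, the unfolded protein response core ACGTGG and the TATA box TATAAA. The Prdm1 window held TGCAAAT on the strand opposite to the gene, from -167 to -161 relative to the start, a motif found in 4.02% of 32851 listed promoters. The Ell2 window held TGACGTCA, which reads the same on both strands, from -198 to -191, against 1.79% of promoters. TATAAA lay from -26 to -21 in the Irf4 window, against 13.6% of promoters. The full octamer occurred in 1.74% of promoters, the paired GAAA sites in 3.44% and ACGTGG in 8.31%, and these letters were not in the windows of these 5 genes.

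Some arrays stood apart from the others or from their labels, and this bears on every result below. Simvastatin 1, simvastatin 3 and combined 3 were near-identical: over 10342 probe sets with a mean above 9, the SD of the differences was 0.118 between both simvastatin arrays, 0.111 between simvastatin 1 and combined 3, and 0.114 between simvastatin 3 and combined 3, against at least 0.336 in the 63 other pairs. Simvastatin 1 and simvastatin 3 were averaged into 1 sample, which left 2 simvastatin samples and 11 samples in all. Combined 3 carries another label and was kept as a sample of its own, so the 11 samples may not be independent. Cdkn1a (p21), which p53 induces after DNA damage, was at 13.2, 13.2 and 11.2 on the combined arrays, 13.4, 13.1 and 13.4 on the radiation arrays, 11.1, 13.4 and 11.1 on the simvastatin arrays and 10.2, 10.7 and 13.0 on the control arrays. The arrays labelled combined 3, simvastatin 2 and control 3 therefore lay nearer to the Cdkn1a level of the opposite irradiation label. The description field calls all 12 samples lung of a control animal and so does not tell the groups apart; whether labels were exchanged or arrays entered more than once was not tested. The Y-linked Eif2s3y was at 10.4 on radiation 1 and 10.2 on control 3, and at most at 3.46 on the other arrays. Sftpc, the surfactant protein C gene, was between 15.6 and 15.8 and Scgb1a1, the club cell secretory protein gene, between 15.8 and 16.2. Over the 9 lung genes measured, the mean was 13.5 on control 1 and between 14.0 and 14.5 on the other arrays. Lung tissue was thus present on the 12 arrays, though lung genes were lower on control 1. The tissue next to it varied: Glycam1, a mucin-like gene of the high endothelial venules of lymph nodes, was at 9.11, 10.2 and 2.97 on the combined arrays, 3.03, 7.60 and 2.92 on the radiation arrays, between 2.88 and 3.05 on the simvastatin arrays, and 9.86, 2.90 and 2.96 on the control arrays. Rag1, which cuts receptor genes in developing lymphocytes and is strong in thymus, was at 11.05 on combined 1 and 14.42 on control 1, and at most at 2.33 elsewhere.

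**Figure D1:**
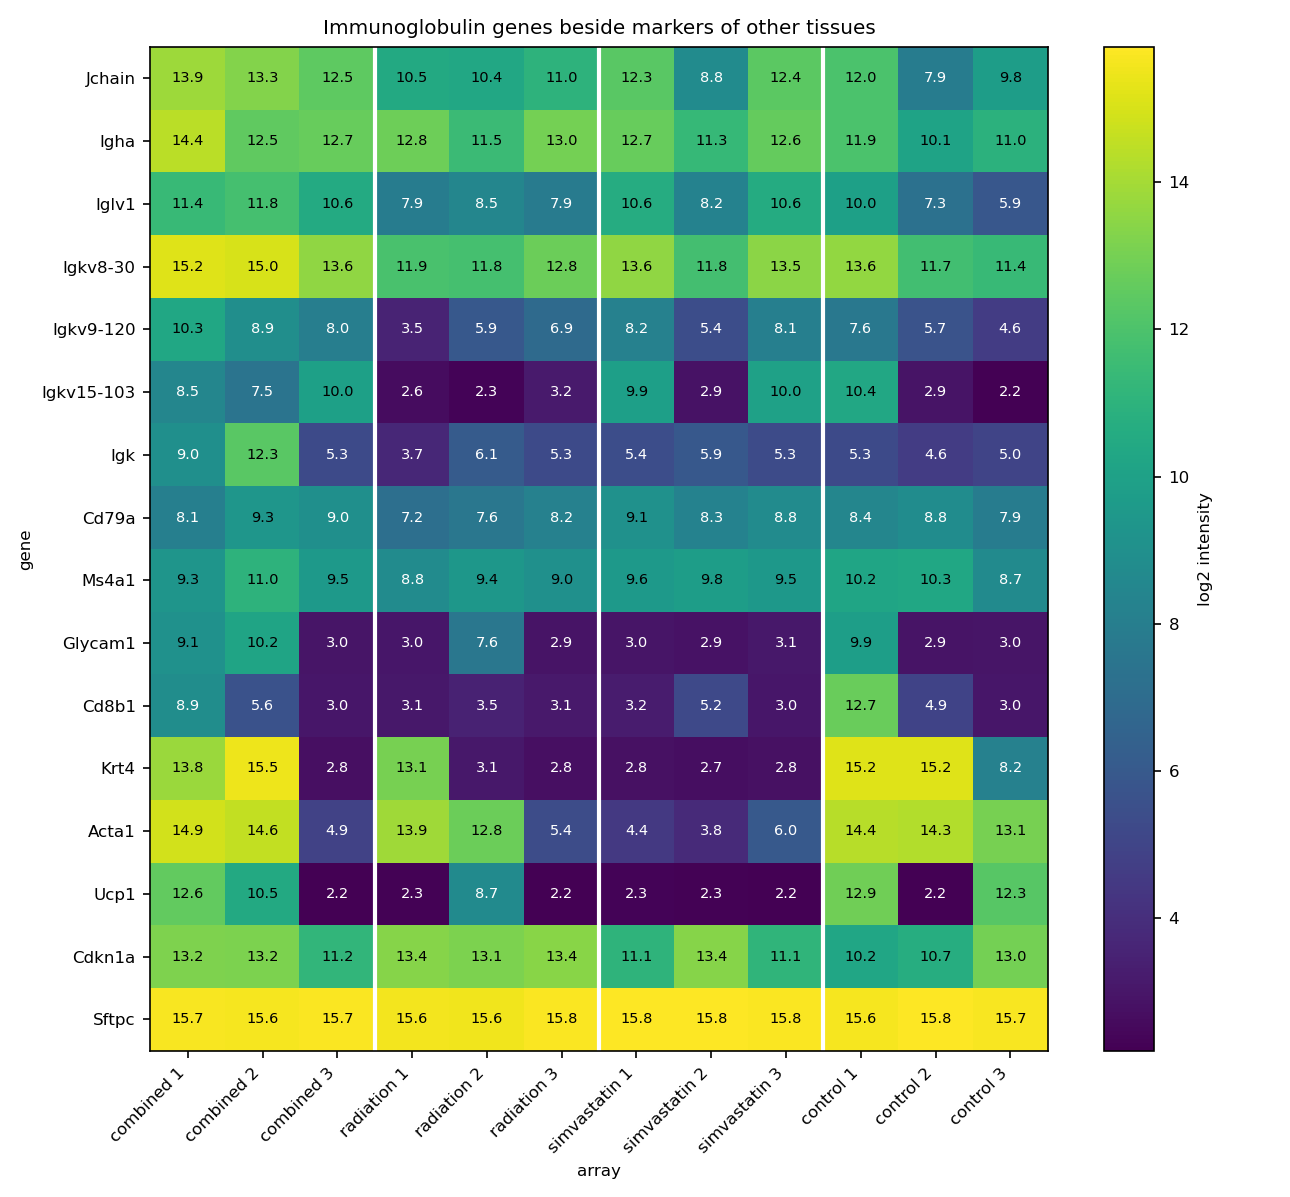
Log2 level of marker genes on each of the 12 arrays, for Cdkn1a, for genes of tissues other than lung parenchyma and for lung genes. Cdkn1a was at 11.2 on combined 3, 13.4 on simvastatin 2 and 13.0 on control 3, and Glycam1 was above 7 on combined 1, combined 2, radiation 2 and control 1.

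Levels below are the deposited log2 values of a gene's probe set, and differences are log2 differences with their standard error from limma over the 11 samples. No gene on the array passed an adjusted p under 0.05 in any of the 4 comparisons (0% of 11602), and the unadjusted p was under 0.05 for 518 genes in combined minus radiation, 600 in radiation minus control, 214 in simvastatin minus control and 377 in the interaction. The 8 genes are therefore given by their levels and spreads, with none of their differences past the test.

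Ighm, the heavy chain of IgM (probe set 1427351_s_at), was at 14.89, 14.51 and 13.85 in combined lungs, 10.76, 11.47 and 12.54 in radiation lungs, 13.82, 10.69 and 13.78 in simvastatin lungs and 13.82, 11.08 and 12.08 in control lungs. All 3 combined arrays lay above all 3 radiation arrays and all 3 control arrays, while control 1 and the near-identical pair of simvastatin arrays came close to combined 3. Ighm differed by 2.83 ± 0.87 between combined and radiation lungs, by -0.74 ± 0.87 between radiation and control lungs, and by -0.08 ± 0.98 between simvastatin and control lungs. Without control 1, radiation minus control was 0.0097 and simvastatin minus control 0.66. In bulk tissue, fewer cells of a type and less RNA per cell cannot be told apart, here and for every gene below.

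Ighg3, the heavy chain of the IgG3 subclass (1427503_at), was at 11.49, 12.07 and 6.76 in combined lungs, 7.67, 7.86 and 10.17 in radiation lungs, 6.77, 6.05 and 6.98 in simvastatin lungs and 5.99, 4.40 and 6.02 in control lungs. The lowest radiation array was above the highest control array by more than a log2 unit, and within the combined group combined 3 sat with the simvastatin arrays, far below the other two. The difference was 1.54 ± 1.27 for combined minus radiation, 3.10 ± 1.27 for radiation minus control and 0.995 ± 1.42 for simvastatin minus control. Combined minus radiation was 3.21 without combined 3 and 0.56 without combined 2.

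Jchain, which links IgM and IgA into polymers (1424305_at), was at 13.86, 13.33 and 12.48 in combined lungs, 10.47, 10.36 and 11.01 in radiation lungs, 12.35, 8.80 and 12.38 in simvastatin lungs and 11.97, 7.95 and 9.81 in control lungs. Every combined array was above every radiation and control array, and the radiation arrays were close together inside the much wider control range. Jchain differed by 2.61 ± 1.05 between combined and radiation lungs, by 0.71 ± 1.05 between radiation and control lungs and by 0.68 ± 1.17 between simvastatin and control lungs. Without control 2, radiation minus control was -0.27 and simvastatin minus control was -0.31.

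Mzb1, an endoplasmic reticulum chaperone of marginal zone B cells and plasma cells (1428947_at), was at 9.39, 9.54 and 8.35 in combined lungs, 6.66, 6.89 and 7.65 in radiation lungs, 8.26, 7.04 and 8.24 in simvastatin lungs and 7.75, 7.002 and 7.15 in control lungs. Again the combined arrays did not overlap with the radiation or the control arrays, and radiation and control arrays were intermingled. Its differences were 2.02 ± 0.44 for combined minus radiation, -0.23 ± 0.44 for radiation minus control and 0.34 ± 0.49 for simvastatin minus control.

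**Figure D2:**
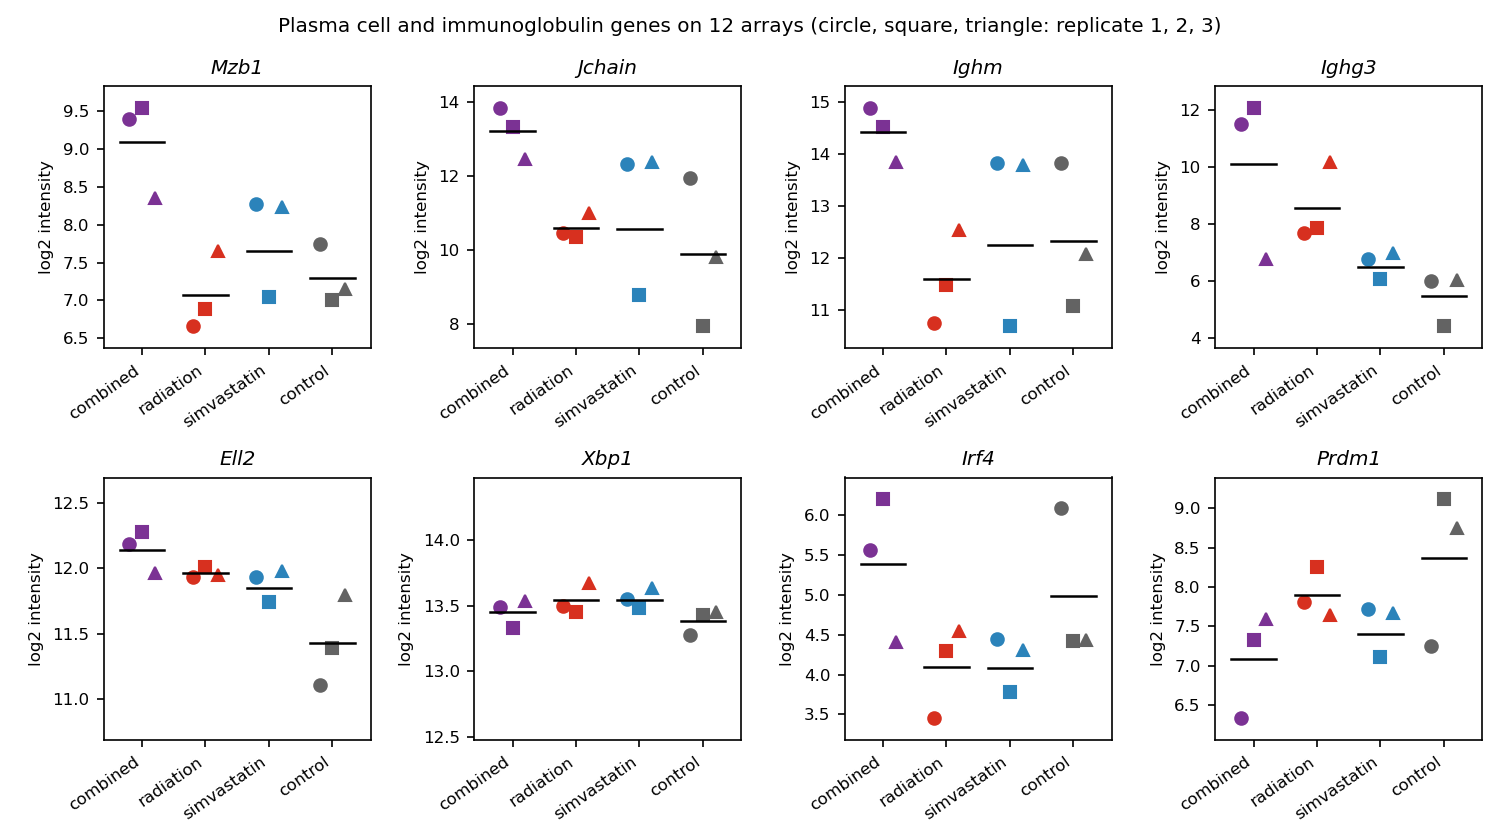
Log2 level of each of the 8 genes on every array (points) by group, with the mean of the group's samples (bars), simvastatin 1 and simvastatin 3 averaged first. Ighm, Jchain and Mzb1 were higher on all 3 combined arrays than on any radiation array, whereas Xbp1 stayed between 13.28 and 13.67 on all 12 arrays.

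The transcription factors differed from the antibody genes and from each other: Xbp1 was nearly level over the arrays, Prdm1 was lower in combined than in radiation lungs, and Irf4 was low on most arrays. Xbp1, the factor of the unfolded protein response that builds secretory capacity (1437223_s_at), was at 13.49, 13.33 and 13.54 in combined lungs, 13.50, 13.45 and 13.67 in radiation lungs, 13.55, 13.48 and 13.63 in simvastatin lungs and 13.28, 13.43 and 13.45 in control lungs. The combined and radiation arrays overlapped, and the whole spread was less than 1 log2 unit. Xbp1 differed by -0.09 ± 0.11 for combined minus radiation, 0.15 ± 0.11 for radiation minus control and 0.15 ± 0.12 for simvastatin minus control. Its 4 probe sets gave -0.03 to -0.15 for combined minus radiation.

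Prdm1, the repressor Blimp-1 that ends the B cell programme (1420425_at), was at 6.34, 7.32 and 7.59 in combined lungs, 7.80, 8.25 and 7.64 in radiation lungs, 7.72, 7.10 and 7.67 in simvastatin lungs and 7.25, 9.11 and 8.75 in control lungs. The combined arrays were all below the radiation arrays, the nearest pair being combined 3 and radiation 3, and control 1 lay well below the other control arrays. The difference was -0.81 ± 0.50 for combined minus radiation, -0.47 ± 0.50 for radiation minus control and -0.97 ± 0.56 for simvastatin minus control. Combined minus radiation was -0.44 without combined 1. Without control 1, radiation minus control was -1.03 and simvastatin minus control -1.53, and without control 2 they were -0.10 and -0.60.

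Irf4, a factor needed for plasma cells and for other lymphocytes (1421173_at), was at 5.56, 6.20 and 4.40 in combined lungs, 3.46, 4.30 and 4.55 in radiation lungs, 4.44, 3.79 and 4.31 in simvastatin lungs and 6.10, 4.42 and 4.44 in control lungs. It exceeded 4.85, the median of all values on the arrays and the filter level, on 3 arrays: combined 1, combined 2 and control 1, which also carried Glycam1. Radiation 2, with Glycam1 at 7.60, had Irf4 at 4.30. All radiation and simvastatin arrays were below the filter level. Combined and radiation arrays overlapped, at 4.40 on combined 3 against 4.55 on radiation 3. The differences were 1.29 ± 0.61 for combined minus radiation, -0.88 ± 0.61 for radiation minus control and -0.90 ± 0.68 for simvastatin minus control. Without control 1, radiation minus control was -0.33 and simvastatin minus control -0.35.

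Ell2, the elongation factor of the secreted heavy chain mRNA (1450744_at), was at 12.18, 12.27 and 11.97 in combined lungs, 11.93, 12.01 and 11.95 in radiation lungs, 11.93, 11.74 and 11.98 in simvastatin lungs and 11.11, 11.39 and 11.79 in control lungs. All arrays of both irradiated groups were above all control arrays, and combined and radiation arrays overlapped narrowly. Ell2 differed by 0.18 ± 0.18 for combined minus radiation, 0.53 ± 0.18 for radiation minus control and 0.42 ± 0.20 for simvastatin minus control.

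**Figure D3:**
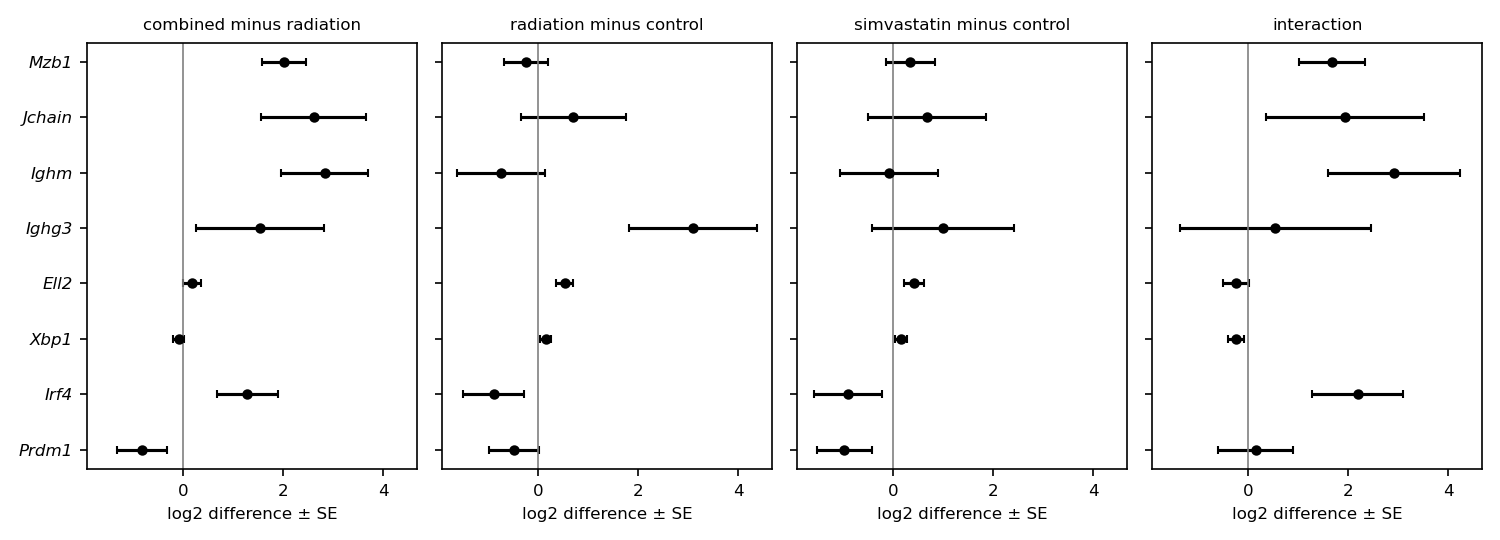
Log2 difference with its standard error from limma for the 8 genes in combined minus radiation, radiation minus control and simvastatin minus control, and for the interaction. In combined minus radiation the values ran from -0.81 for Prdm1 to 2.83 for Ighm, and none of the differences drawn passed the test.

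Across the 8 genes, 6 were higher and 2 lower in combined than in radiation lungs, with a median difference of 1.41 against -0.09 over all genes tested. Limma's adjusted p lay between 0.835 and 0.886, and the unadjusted p was under 0.05 for 3 of the 8. Combined and radiation samples did not overlap for 3 genes upward (Ighm, Jchain and Mzb1), where 3.7% of all genes did so, and for Prdm1 downward, where 13.5% did so. These counts describe a comparison that was in view when the genes were chosen. In radiation minus control 4 genes were higher and 4 lower, with a median of -0.04 against 0.08 over all genes and adjusted p from 0.751 to 0.872. Radiation samples lay above control samples for Ighg3 and Ell2, 2 of the 8, against 4.86% of all genes upward and 2.03% downward. In simvastatin minus control 5 genes were higher and 3 lower, with a median of 0.25 against -0.00 and adjusted p from 0.990 to 0.996. Simvastatin samples, of which there were 2, lay above control samples for Ighg3 and Xbp1 (3.36% of all genes) and below them for Irf4 (7.96%). The nearest values were 6.05 against 6.02 for Ighg3 and 13.48 against 13.45 for Xbp1. For Irf4 the arrays overlapped before averaging, with simvastatin 1 at 4.44 and control 2 at 4.42. These Irf4 values were below the filter level of 4.85. Combined samples lay above control samples for 5 genes, Ighm, Ighg3, Jchain, Mzb1 and Ell2, against 2.67% of all genes upward and 3.87% downward. The comparisons share control, radiation or combined samples. Combined minus control and the interaction use the combined arrays of the comparison that was in view when the genes were chosen. Their values and counts are therefore a description as well.

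The interaction asks whether simvastatin went with a different change in irradiated than in unirradiated lungs. It was 2.91 ± 1.31 for Ighm, 2.19 ± 0.91 for Irf4, 1.93 ± 1.57 for Jchain and 1.68 ± 0.66 for Mzb1. Without simvastatin 2, an array whose Cdkn1a goes against its label, the interaction was 1.35 for Ighm, 0.15 for Jchain and 1.07 for Mzb1. That setting left 1 simvastatin sample, the average of 2 arrays near-identical to combined 3. Without control 1 the interaction was 0.90 for Jchain. Over the 11 samples it was 0.54 ± 1.91 for Ighg3, 0.16 ± 0.75 for Prdm1 and -0.24 for both Xbp1 (± 0.16) and Ell2 (± 0.27). Limma's adjusted p was between 0.882 and 0.968 for the 8 genes. The Ighm value is that of the chosen probe set. On 1425247_a_at, group means were 10.84 in combined, 5.14 in radiation, 8.88 in simvastatin and 3.08 in control lungs. That probe set was thus higher with simvastatin in both irradiated and unirradiated lungs. On 1427329_a_at, which followed the chosen one, they were 14.32, 11.25, 12.34 and 12.22. The interaction was not fitted for each Ighm probe set.

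Without combined 3, simvastatin 2 and control 3, combined minus radiation was 3.11 for Ighm, 2.98 for Jchain and 2.39 for Mzb1, and 0 genes passed. Glycam1 RNA moved with the antibody genes on some arrays and not on others. Without the 4 arrays that held Glycam1 (combined 1, combined 2, radiation 2 and control 1), combined minus radiation was 2.21 for Ighm, 1.74 for Jchain, 1.19 for Mzb1, 0.40 for Irf4, -0.13 for Prdm1 and -2.16 for Ighg3, with combined 3 as the only combined array. The near-identical arrays combined 3, simvastatin 1 and simvastatin 3 had Jchain at 12.3 to 12.5 with Glycam1 at about its lowest level. Radiation 2 had Jchain at 10.4 with Glycam1 at 7.60. Cxcl13, a chemokine gene of lymphoid stroma, was at 10.7, 10.4 and 9.33 on the combined arrays and 8.90, 8.35 and 7.10 on the radiation arrays. On the simvastatin arrays it was at 9.26, 4.45 and 9.30, and on the control arrays at 9.39, 5.45 and 8.10. Cxcl13 was thus high on the near-identical arrays, and lowest on simvastatin 2 and control 2, where Jchain was lowest. Over the 4 lymph node and lymphoid stroma genes measured, the log2 of the summed level ranged from 10.4 to 11.7 in combined lungs, 9.56 to 9.82 in radiation lungs, 9.06 to 10.5 in simvastatin lungs and 9.17 to 11.7 in control lungs. Of these 4 genes, 3 were higher in combined than in radiation lungs, with a median of 1.39. Genes of other tissues outside the lung parenchyma had the same direction as the antibody genes in combined minus radiation. All 8 squamous epithelium genes were higher, with a median of 2.71, as were 6 of 6 brown and white fat genes (2.07), 8 of 8 skeletal muscle genes (1.19) and 7 of 7 T cell and thymocyte genes (1.02), none past limma's test. Lung genes went the other way: 7 of 9 were lower, with a median of -0.15 against -0.09 over all genes. For 3 of these 9 genes the groups did not overlap downward (13.5% of all genes). Upward, the groups did not overlap for 4 of the 6 fat genes (3.7% of all genes). The same held for 1 of the 7 T cell and thymocyte genes and 1 of the 4 lymph node and lymphoid stroma genes. It held for 0 of the squamous and 0 of the muscle genes. The log2 of the summed level of the fat genes ranged from 15.7 to 16.7 in combined lungs and from 15.0 to 15.2 in radiation lungs. For the squamous genes it ranged from 6.71 to 16.9 in combined lungs and from 6.64 to 14.1 in radiation lungs. Muscle genes ranged from 8.82 to 16.2 in combined lungs and from 8.38 to 15.4 in radiation lungs, and T cell and thymocyte genes from 10.9 to 12.2 in combined lungs and from 10.1 to 10.5 in radiation lungs. The part of such tissue in the differences was not tested beyond these values.

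Ighm was represented by 11 probe sets with that symbol alone, of which 7 passed the filter, and they did not all follow the same pattern. The probe set 1427329_a_at followed the chosen one, at 14.87, 14.71 and 13.38 in combined, 10.47, 11.26 and 12.03 in radiation, 13.37, 11.36 and 13.25 in simvastatin and 13.52, 11.60 and 11.53 in control lungs. The probe set 1425247_a_at was at 11.49, 9.24 and 11.79 in combined, 7.41, 3.26 and 4.77 in radiation, 11.75, 5.97 and 11.84 in simvastatin and 3.19, 2.95 and 3.09 in control lungs. Control 1, with a high value on the chosen probe set, was near the bottom of the range of this one, as it also was for 1425324_x_at, 1427756_x_at and 1427870_x_at. The probe set 1425385_a_at was high on combined 1 and combined 2, at 11.96 and 11.07, and at most at 7.27 elsewhere. Combined minus radiation ranged from 2.83 to 5.70 over the 7 probe sets, all above 0. Antibody genes share long stretches of sequence and each B cell clone uses its own variable segment, so the gene behind such a probe set is uncertain. Ighg3 had 4 probe sets, of which 1 passed the filter. Irf4 and Ell2 had 2 each, of which 1 passed, and the other Irf4 probe set (1421174_at) lay between 2.03 and 2.25.

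**Figure D4:**
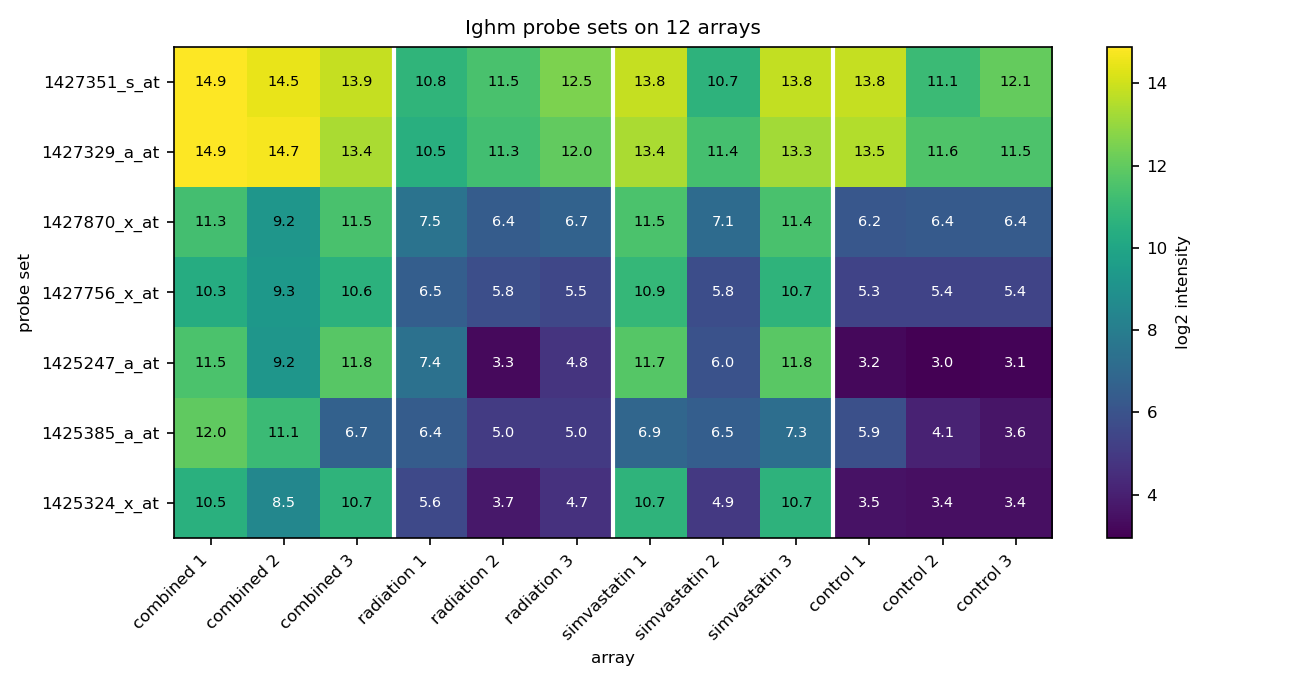
Log2 level of the 7 Ighm probe sets that passed the filter, on each of the 12 arrays. The chosen probe set and 1427329_a_at were high on control 1, at 13.82 and 13.52, whereas 1425247_a_at was at 3.19 there and at 11.49, 9.24 and 11.79 on the combined arrays.

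Other antibody genes had the same direction in combined minus radiation. Of 21 listed immunoglobulin genes on the array 12 passed the filter, and the 9 that are not among the 8 genes were all higher in combined lungs, with a median of 2.44 against -0.09 over all genes. None passed limma's test (6 had an unadjusted p under 0.05), and combined and radiation samples did not overlap for 4 of the 9 (3.7% of all genes). Igkv9-120, a kappa light chain variable segment, was at 10.32, 8.94 and 8.01 in combined, 3.53, 5.94 and 6.92 in radiation, 8.21, 5.43 and 8.09 in simvastatin and 7.65, 5.70 and 4.63 in control lungs, and differed by 3.63 ± 1.11. All its combined arrays were above all its radiation arrays. The kappa segment Igkv15-103 was at 8.47, 7.46 and 9.97 in combined, 2.63, 2.32 and 3.20 in radiation, 9.89, 2.86 and 9.99 in simvastatin and 10.35, 2.89 and 2.23 in control lungs. It was either high or near the bottom of the scale, high on all combined arrays, simvastatin 1, simvastatin 3 and control 1, and differed by 5.91 ± 2.21. Igk, the kappa locus, differed by 3.85 ± 1.42, but its groups overlapped, since 12.35 on combined 2 and 9.01 on combined 1 stood against 5.28 on combined 3. Igha, the heavy chain of mucosal IgA, chosen after its values were seen, was at 14.43, 12.51 and 12.66 in combined, 12.84, 11.50 and 12.98 in radiation, 12.68, 11.31 and 12.62 in simvastatin and 11.95, 10.11 and 10.96 in control lungs, with overlap between combined and radiation lungs. The 9 genes had a median of -0.07 in radiation minus control, with 4 above 0 and 5 below, and of 0.69 in simvastatin minus control, with 9 of 9 above 0.

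Other plasma cell genes were mixed. Of 12 tested, 9 were higher and 3 lower in combined than in radiation lungs, with a median of 0.46, and none passed limma's test (1 had an unadjusted p under 0.05). Pou2af1, a coactivator of immunoglobulin transcription, was at 9.46, 10.15 and 8.47 in combined and 7.42, 8.34 and 8.24 in radiation lungs, without overlap, and differed by 1.36 ± 0.43. Sdc1 (CD138), the surface marker by which plasma cells are sorted and which epithelia also carry, was at 12.66, 12.78 and 12.91 in combined and 12.93, 13.44 and 12.86 in radiation lungs, with overlap and a difference of -0.29 ± 0.23. The largest absolute differences after Pou2af1 were those of Cd28, a costimulatory receptor of T cells and plasma cells, at 1.36 ± 1.53, and of Tmem184a, at -0.718 ± 1.004. Cd28 was at 12.70 on control 1, the array with the highest Rag1, and at most at 8.599 elsewhere. Tnfrsf17, the plasma cell survival receptor BCMA, was between 2.08 and 2.17 on the 12 arrays, and neither it nor Slamf7 nor Derl3 passed the filter. The plasma cell surface markers Tnfrsf17 and Slamf7 thus gave no reading of these cells in any group.

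Genes of the secretory pathway, including Xbp1 targets, had the opposite direction to the antibody genes. Of 29 tested, 28 were lower and 1 higher in combined than in radiation lungs, where 37.4% of all genes were higher. The median was -0.19 against -0.09 over all genes, and none passed limma's test (3 had an unadjusted p under 0.05). Lung genes went the same way, with 7 of 9 lower and a median of -0.15. Groups did not overlap for 10 of the 29 downward (13.5% of all genes) and for 1 upward. Hspa5 (BiP), the main chaperone of the endoplasmic reticulum, was at 14.26, 14.17 and 14.13 in combined and 14.43, 14.46 and 14.65 in radiation lungs, a difference of -0.33 ± 0.15. Manf, a secreted factor of endoplasmic reticulum stress, differed by -0.57 ± 0.19, and Dnajb9, a co-chaperone of BiP, by -0.45 ± 0.21, both without overlap. The largest absolute difference of the list was that of Sdf2l1, a BiP cofactor, at -1.24 ± 0.67 with overlap. Creld2, also induced by endoplasmic reticulum stress, differed by -0.45 ± 0.31. In radiation minus control the secretory list had a median of 0.24 against 0.08 over all genes. There 27 of 29 were above 0, against 60.4% of all genes. Lung epithelium expresses these genes as well, and the cells behind these levels were not tested.

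B cell genes, read from 23 genes tested, were all higher in combined than in radiation lungs, with a median of 0.92 against -0.09 over all genes and 7 of 23 without overlap (3.7% of all genes). None passed limma's test, and 9 had an unadjusted p under 0.05. Cr2 (CD21), a complement receptor of mature B cells, was at 6.72, 7.52 and 6.61 in combined, 4.03, 5.65 and 5.65 in radiation, 6.74, 6.01 and 6.46 in simvastatin and 6.54, 6.82 and 5.65 in control lungs, and differed by 1.84 ± 0.51. Cd37, a B cell tetraspanin, differed by 2.31 ± 0.84 and Spib, a B cell transcription factor, by 1.57 ± 0.66, both without overlap. Cd79a, a signalling chain of the B cell receptor, differed by 1.14 ± 0.40 and Ms4a1 (CD20) by 0.87 ± 0.51, both with overlap. In radiation minus control 20 of the 23 B cell genes were below 0, with a median of -0.47, whereas in simvastatin minus control 14 were above 0, with a median of 0.06. On combined 3, Cr2 and Cd79a, at 6.61 and 8.98, were close to simvastatin 1, at 6.74 and 9.09, and simvastatin 3, at 6.46 and 8.79.

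Median centring of the arrays moved the median of all genes in combined minus radiation to -0.45, against -0.09 as deposited. It adds the same shift to every gene in a comparison, so values are read relative to that median: 7 of the 8 genes, 9 of 9 immunoglobulin genes and 23 of 23 B cell genes lay above it, and 26 of 29 secretory genes below it. Quantile normalization, which does not shift all genes alike, gave 7 of 8, 9 of 9, 22 of 23 and 23 of 29. Ell2, at 0.18 as deposited, was at -0.18 under median centring through that shift.

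Over the 11 samples, the genes most like Mzb1 by Pearson's r were Tob2 (r = 0.96, Spearman's rho = 0.94), Igkv8-30 (0.96 and 0.79), Trim7 (0.93 and 0.81), Ighm (0.92 and 0.92) and Igkv9-120 (0.92 and 0.89). Those most like Jchain were Slc27a1 (0.93 and 0.95), Ighm (0.92 and 0.91), Igkv8-30 (0.92 and 0.95), Mknk2 (0.91 and 0.85) and Bckdhb (0.90 and 0.90). Without the 2 samples farthest from the median, r was 0.95 for Mzb1 and Tob2, 0.93 for Mzb1 and Ighm and 0.92 for Jchain and Ighm. Jchain had r = -0.03 with Xbp1 and -0.70 with Prdm1, the second being -0.31 without the 2 farthest samples. These correlations are a description: the 11 samples share the groups, the neighbouring tissue and the near-identical arrays described above.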

How the data were processed

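Lung RNA was hybridised to 12 arrays, 3 in each of 4 groups taken from the titles. The authors deposited 1 table of log2 values for 45101 probe sets, and per the submitters' processing notes MAS5 and GCRMA were used. No source used here gives their versions or settings. Array medians ran from 4.41 to 5.12, the values were used as deposited, and the number of arrays limits the precision. Control probe sets (64) were left out. The platform annotation gave 1 symbol to 34945 probe sets, several to 932 and none to 9160. A probe set with 1 symbol was kept when above 4.85, the median of all values, on at least 3 arrays, and a gene was read from its kept probe set of highest mean. Limma 3.58.1 in R 4.3.3 fitted the 4 groups on 11 samples (lmFit and eBayes, Benjamini-Hochberg over 11602 genes, threshold 0.05), and was tested on simulated data. Groups were called not overlapping when every sample of one lay above every sample of the other. Replicate numbers were checked for pairing: over 18 same-number pairs r ran from -0.26 to 0.41, with 8 above 0.1, so they were not used to pair samples. Other normalizations, filters, array weights and sample sets were tried. Named genes in the lists were the 3 with the largest absolute difference in combined minus radiation, and the defining genes Sdc1, Tnfrsf17, Pou2af1, Cd79a, Ms4a1, Hspa5 and Dnajb9 (1 further gene of the rule is not reported here); likeness named the 5 genes of highest r. The 8 genes and the lists were chosen with earlier results of these data known.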

Additional observations from a re-analysis of the deposited data

Results flagged for a closer look

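Irf4 differed in opposite directions with simvastatin, by 1.29 in irradiated lungs and by -0.90 in unirradiated lungs, a difference of 2.19. Read the other way, irradiated minus unirradiated lungs gave 1.31 with simvastatin and -0.88 without it, which is -2.19 for without minus with. Xbp1 differed by -0.09 with simvastatin in irradiated lungs and by 0.15 in unirradiated lungs, a difference of -0.24. Irradiated minus unirradiated lungs gave -0.09 with simvastatin and 0.15 without it for Xbp1, which is 0.24 for without minus with. Each was picked out because every sample of one group lay to one side of the mean it was set against and every sample of the other group lay to the opposite side. Limma's adjusted p of the interaction was 0.882 for both genes, so neither passed. For Xbp1, combined 3 at 13.535 lay just below the simvastatin mean of 13.539 and the radiation mean of 13.540. The Xbp1 probe set 1420012_at went the other way between combined and simvastatin lungs, at 7.44 against 7.17. On 1420011_s_at and 1420886_a_at the means were 13.05 against 13.07 and 12.53 against 12.56. Without control 1 the Irf4 difference in unirradiated lungs was -0.35 and the interaction 1.63. Irf4 was above the filter level on 3 arrays, combined 1, combined 2 and control 1, all of which held Glycam1. Radiation 2 also held Glycam1 and had Irf4 at 4.30, below that level. The Irf4 differences thus rest on these 3 arrays set against values below the filter level. The part of lymph node tissue in the differences was not tested.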

How the results depend on the processing

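The differences of the 8 genes kept their side of the threshold in all settings run other than array weights. With array weights the number of genes past the threshold was 1172 in combined minus radiation and 1241 in radiation minus control. Mzb1 at 2.48 (limma's adjusted p = 0.0344), Jchain at 2.95 (adjusted p = 0.0348), Ighm at 3.41 (adjusted p = 0.0344) and Irf4 at 1.85 (adjusted p = 0.0356) passed in combined minus radiation, and Ighg3 at 3.41 (adjusted p = 0.0478) and Ell2 at 0.55 (adjusted p = 0.0309) in radiation minus control. Simvastatin 1 and simvastatin 3 entered the weights as their average, beside combined 3, and the part of these arrays was not tested. Without combined 3 and without weights, combined minus radiation was 2.39 for Mzb1, 2.98 for Jchain, 3.11 for Ighm and 1.78 for Irf4. The number of genes past the threshold was 9 in radiation minus control without control 3, combined 3 and simvastatin 2, and 13 in simvastatin minus control with only the groups compared. Leaving out 1 array at a time it was 0 to 1 in radiation minus control and in the interaction, 1 in each without control 3. Median centring adds 1 shift to all genes of a comparison, and by that construction Ell2 was -0.18 in combined minus radiation, Mzb1 0.044 in radiation minus control and Prdm1 -0.21 in the interaction. Other directions turned as follows, and the cause was not tested. Without the arrays with Glycam1, a setting chosen after seeing the data, Ighg3 was -2.16 in combined minus radiation and -3.42 in the interaction, Mzb1 0.079 and Ighm 0.067 in radiation minus control, and Ighm 0.66 in simvastatin minus control. With the mean of all probe sets, Ighm was 0.52 in radiation minus control and 2.62 in simvastatin minus control. In simvastatin minus control Ighm was also 0.44 with 12 arrays as 12 samples, 1.35 without the 3 arrays and 0.98 with array weights. Prdm1 in the interaction was -0.10 without combined 3 and -0.58 without the 3 arrays. The setting without the 3 arrays left 1 simvastatin sample. Leaving out 1 array at a time gave -0.27 to 1.74 for Jchain and -1.36 to 0.0097 for Ighm in radiation minus control, -0.31 to 2.45 for Jchain and -0.71 to 1.47 for Ighm in simvastatin minus control, and -0.44 to 2.21 for Ighg3 and -0.22 to 0.72 for Prdm1 in the interaction. There it also gave 1.35 to 3.53 for Ighm, 0.15 to 2.91 for Jchain and 1.07 to 2.05 for Mzb1. Each was lowest without simvastatin 2, which left 1 simvastatin sample. With the replicate block over 12 arrays, 0 genes passed in each comparison, no call changed and Ighm was 0.44 in simvastatin minus control; 8 of 12 arrays correlated best with an array of their own number, a hint from the data and not from the design.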
